A study of Rattus norvegicus with 8 samples.

Results

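The CC chemokines described here were 10 ligand genes, Ccl2, Ccl3, Ccl4, Ccl5, Ccl6, Ccl7, Ccl9, Ccl17, Ccl21 and Ccl22, chosen by symbol from the 37209 genes of a rat carotid artery count table. Their mRNA was sequenced in male Sprague-Dawley rats, in the injured carotid artery (n = 4) and in the contralateral one (n = 4). In the injured group a balloon catheter had been used to damage the intima, the inner layer, of the left carotid artery, and the vessels were taken 2 weeks later. The control group was the undamaged right carotid artery of operated animals, so the controls came from animals that carried an injury on the other side. Ages were not given in the sources used here, and nothing in the labels ties an artery number to one animal.

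CC chemokines are small secreted proteins named for a pair of adjacent cysteines near the amino terminus. They bind to the surfaces of cells and to matrix, and they draw in leukocytes through G protein-coupled receptors of the Ccr family. In an injured artery they are best known for the recruitment of monocytes and T cells to the vessel wall. Atypical receptors of the Ackr family bind the same ligands without G protein signalling and can remove them from the tissue.

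Most of these genes lie side by side in the rat genome (GRCr8 annotation of RefSeq, in which all 10 matched by symbol). Ccl2 and Ccl7 are direct neighbours on chromosome 10. Ccl5, Ccl9, Ccl6, Ccl3 and Ccl4 follow each other in that order at another place on the same chromosome. Ccl17 and Ccl22 stand on chromosome 19 with only Cx3cl1 between them, and Ccl21 is on chromosome 5, next but one to Ccl19. RefSeq promoter sequences, which run from well before to just after the annotated start (300 bases), were given for 6 of the 10, namely Ccl6, Ccl7, Ccl9, Ccl17, Ccl21 and Ccl22.

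Ccl6 and Ccl9 are adjacent and were both upregulated after injury, and their promoters were the most alike of the 6, with 84 identical bases in 106 aligned positions (79.2%). Shown here is the upstream piece of that alignment, with capitals where both genes have the same base (45 of 55 positions). The Ccl6 piece is chr10:68883437-68883490 on the minus strand of GRCr8, 124 to 71 bases before the start. The Ccl9 piece is chr10:68868878-68868932 on the minus strand, 55 bases to 1 base before the start.
Ccl6: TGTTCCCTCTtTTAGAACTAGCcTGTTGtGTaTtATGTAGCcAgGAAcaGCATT
Ccl9: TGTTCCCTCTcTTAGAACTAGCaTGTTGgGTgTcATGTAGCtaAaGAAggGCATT
The counting tool was not given in the sources used here, so how reads that fit both of such related genes were assigned is not known.

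Motif letters were searched on both strands of the 6 promoters, and 6 of the matches upstream of the annotated start are printed. TATAAA was found in 3 of 6, against 14.2% of the 33469 promoters in the reference. In Ccl6 it lay 32 bases before the start and in Ccl7 34 bases before it. The Ccl9 matches lay 165 bases before the start and, on overlapping positions of both strands, just after it. The Ccl6 match and the forward Ccl9 match at position 40 after the start lie opposite each other in the alignment of both promoters. Their distances therefore follow where each start was annotated. The kappaB consensus, the letters bound by NF-kappaB, was found in Ccl7 and Ccl9 (7.51% of all promoters). Ccl9 also had a kappaB match at position 15 after the start, which is not printed. The AP-1 letters TGANTCA were found in Ccl7 (7.33% of all promoters), and the letters TTC and GAA with the spacing known for STAT6 in Ccl17 (7.28%). The interferon element, a spaced repeat of TTTC, was in none of the 6 and in 3.92% of all promoters. Each line gives 30 bases of GRCr8 with the match in capitals.
Ccl6 TATA, chr10:68883381-68883410, minus strand: aacctcctagctTATAAAtaccagggcagg
Ccl7 TATA, chr10:67514049-67514078, plus strand: ctaactgctgccTATAAAagagaaggcaga
Ccl7 kappaB, chr10:67514026-67514055, plus strand: tcattccaaaGGAAGATCCCgccctaactg
Ccl7 AP-1, chr10:67514011-67514040, plus strand: acaccctcctgTGATTCAttccaaaggaag
Ccl9 kappaB, chr10:68868964-68868993, minus strand: ttgaaagtttGGAAAGCCCCaagtcacctt
Ccl17 STAT6 spacing, chr19:10209944-10209973, minus strand: cgagtgaccaTTCTTTGGAAagccacaaac
A match describes letters in a window and is not shown to be a bound site.

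Total counts were 13470754 to 15276952 in the control arteries and 11459632 to 16658089 in the injured arteries, and levels are given in CPM, the reads of a gene scaled to a common library size with TMM factors. A count of 3, taken as the detection floor for counting error only, equalled 0.167 to 0.246 CPM on this scale. Control artery 4 correlated with the other controls at r = 0.839 to 0.857 over genes, whereas pairs of the remaining controls had r = 0.981 to 0.983. It also held 6823 CPM of 6 sympathetic neuron markers, and injured artery 3 held 1029 CPM, against 1.09 to 86.1 CPM in the other 6 arteries. Smooth muscle markers, which check the labelled tissue, summed to 16999 to 50110 CPM in the controls and 10331 to 16352 CPM after injury. Of these 6 markers 4 were downregulated, beside 2.57% of all tested genes. Results were therefore also computed without control artery 4 and injured artery 3.

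After injury 8 of the 10 CC chemokines were upregulated and none was downregulated (edgeR, false discovery rate, FDR, under 0.05 and fold change above 2). For comparison, 8.31% of the 14359 genes tested were called upregulated and 2.57% downregulated. Ccl22 missed the threshold, and Ccl17 had too few counts for the test. The tested members had log2 fold changes of 1.85 to 9.43 with a median of 2.85, beside a median of -0.06 over all tested genes. Of the 9 members tested, Ccl3, Ccl4, Ccl9 and Ccl22 passed the minimum of 0.67 CPM in 4 arteries only through the injured arteries, so they had to differ, and the count of 8 is a description of the list. DESeq2 called all 10 upregulated, beside 9.61% of the genes it tested.

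In all 10 members, 9 of them tested by edgeR, every injured artery stood above every control artery. The same was true of 14.3% of the genes tested by edgeR. Each member therefore had p = 0.0286 in the exact two-sided permutation test of log2 CPM. This is the smallest value that 70 relabellings of 4 against 4 arteries allow, and it only restates the lack of overlap. In Ccl17 that lack of overlap rested on library size. With control artery 4 and injured artery 3 left out, the same 8 members were called. In pieces of whole artery, more cells of a type and more mRNA per cell cannot be told apart.

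**Figure D1:**
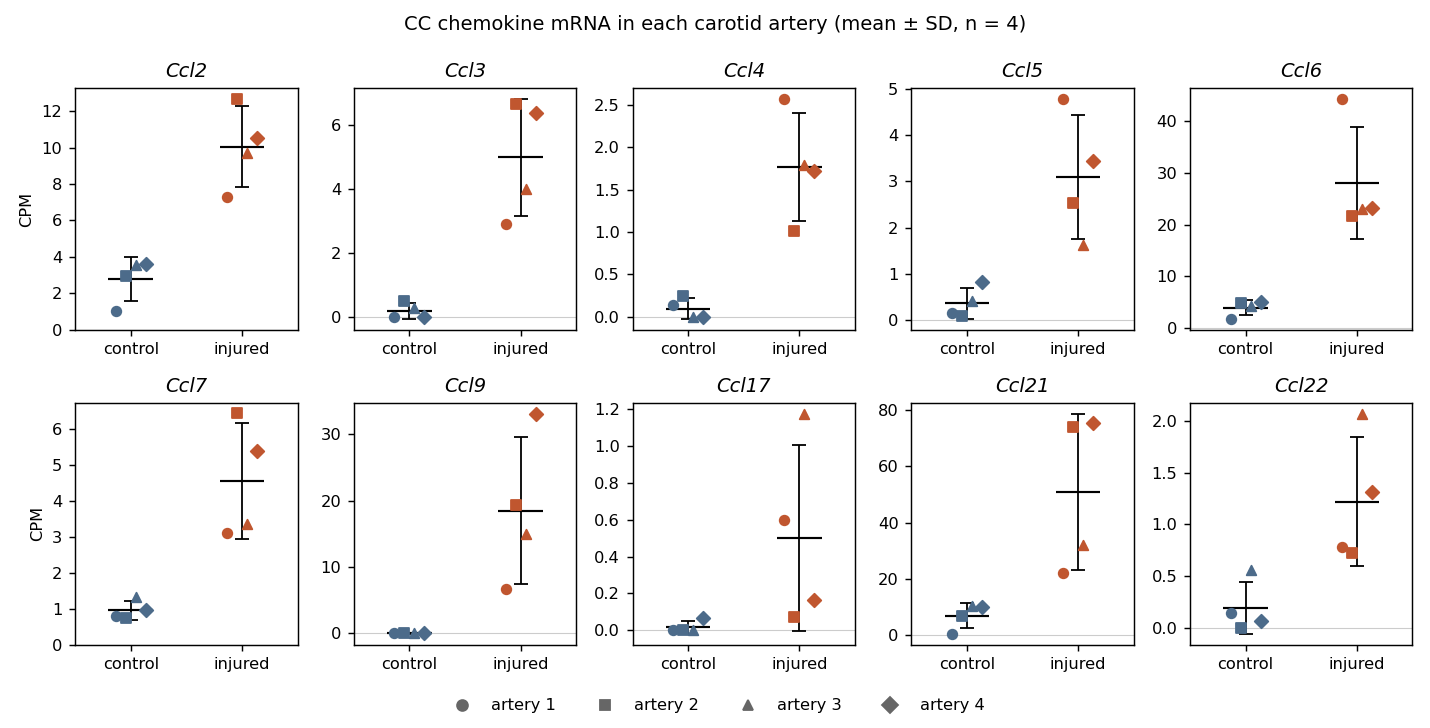
CPM (vertical axis, a separate linear scale for each gene) of the 10 CC chemokines in 4 control and 4 injured carotid arteries. Symbols mark the artery number, the long bar is the mean and the whiskers are 1 SD (n = 4). In each gene all injured arteries stand above all controls, narrowly so in Ccl17, and the injured arteries are widely spread in Ccl9, Ccl17 and Ccl21.

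Ccl2 and Ccl7 are monocyte attractants that share the receptor Ccr2. Ccl2 measured 1.01, 2.95, 3.53 and 3.62 CPM in control arteries 1 to 4 and 7.28, 12.7, 9.71 and 10.5 CPM in injured arteries 1 to 4. Control artery 1 was the lowest control and injured artery 1 the lowest injured vessel, and the groups did not overlap. The mean was 2.78 ± 1.22 CPM (SD, n = 4) in the controls and 10.1 ± 2.23 CPM (SD, n = 4) after injury, and the log2 fold change of 1.85 (SE 0.40, 95% interval 0.94 to 2.76) had an FDR of 0.0161 in edgeR's test. Ccl2 had the smallest log2 fold change of the 9 members tested. Its FDR rose to 0.0525 without injured artery 2 and to 0.0503 without injured artery 4 in edgeR's test, and it was then not called.

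Ccl7 measured 0.792, 0.737, 1.32 and 0.957 CPM in control arteries 1 to 4 and 3.10, 6.44, 3.35 and 5.39 CPM in injured arteries 1 to 4. Injured arteries 2 and 4 were above injured arteries 1 and 3, and the lowest injured artery was above the highest control. The mean rose from 0.95 ± 0.261 to 4.57 ± 1.62 CPM (SD, n = 4), for a log2 fold change in edgeR of 2.25 (SE 0.34, 95% interval 1.47 to 3.02, FDR 0.00364). Ccl7 was called in all 8 fits that left out 1 artery, with log2 fold changes of 2.04 to 2.44. The count of Ccl2 divided by that of Ccl7 was 2.35, 1.97, 2.90 and 1.95 in injured arteries 1 to 4, a comparison of the ratio between arteries and not of the level of one gene with the other, since gene length was not taken into account.

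Ccl3, Ccl4 and Ccl5 draw in monocytes and T cells, and Ccl3 and Ccl5 act on Ccr1. Ccl3 measured 0, 0.492, 0.277 and 0 CPM in control arteries 1 to 4, which were counts of 0, 6, 4 and 0. Injured arteries 1 to 4 held 2.93, 6.66, 4.02 and 6.37 CPM from 49, 92, 72 and 78 counts. Arteries 2 and 4 were again the highest injured vessels, and the controls were near the floor of the assay. The mean rose from 0.192 ± 0.239 to 4.99 ± 1.82 CPM (SD, n = 4), and the log2 fold change was 4.68 (SE 0.87, 95% interval 2.68 to 6.68, edgeR FDR 0.00917). Without control artery 2, which held 6 of the 10 control counts, the log2 fold change was 5.61, and Ccl3 was called in all 8 fits that left out 1 artery.

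Ccl4 measured 0.144, 0.246, 0 and 0 CPM in control arteries 1 to 4, from 5 counts in all, and 2.57, 1.01, 1.79 and 1.72 CPM in injured arteries 1 to 4. Injured artery 1 was the highest and injured artery 2 the lowest, the opposite of Ccl3, and the groups did not overlap. The mean rose from 0.0974 ± 0.12 to 1.77 ± 0.635 CPM (SD, n = 4), for a log2 fold change in edgeR of 4.14 (SE 0.78, 95% interval 2.36 to 5.92, FDR 0.00937). Without control artery 2 it was 5.0. Although Ccl3 and Ccl4 are adjacent genes, the count of Ccl3 divided by that of Ccl4 was 1.14, 6.57, 2.25 and 3.71 in injured arteries 1 to 4.

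Ccl5, which is also made by T cells, measured 0.144, 0.0819, 0.415 and 0.82 CPM in control arteries 1 to 4 and 4.78, 2.53, 1.62 and 3.43 CPM in injured arteries 1 to 4. Control artery 4 was the highest control, injured artery 3 was the lowest injured vessel, and they did not overlap. The mean rose from 0.365 ± 0.336 to 3.09 ± 1.35 CPM (SD, n = 4), for a log2 fold change in edgeR of 3.02 (SE 0.65, 95% interval 1.53 to 4.51, FDR 0.0162). Without control artery 4 the log2 fold change was 3.76. Ccl5 was not called without control artery 3 or without injured artery 4, where its FDR in edgeR's test was 0.05003 and 0.0509.

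Ccl6 and Ccl9 are rodent chemokines that act through Ccr1 and are made by macrophages and other myeloid cells. Ccl6 measured 1.80, 4.75, 4.29 and 4.99 CPM in control arteries 1 to 4 and 44.2, 21.7, 23.0 and 23.2 CPM in injured arteries 1 to 4. Injured artery 1 stood well above the other injured arteries, which were close together, and all were far above the controls. The mean rose from 3.96 ± 1.47 to 28 ± 10.8 CPM (SD, n = 4), for a log2 fold change in edgeR of 2.82 (SE 0.39, 95% interval 1.93 to 3.70, FDR 0.00245). Across the 8 fits that left out 1 artery it stayed called, at 2.51 to 2.95.

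Ccl9 was nearly undetected in the control arteries, where 1 count in control artery 3 was the only one. The injured arteries 1 to 4 held 6.63, 19.3, 15.0 and 33.0 CPM from 111, 267, 269 and 404 counts. Injured artery 4 was the highest and injured artery 1, the highest for Ccl6, was the lowest. Pooled and scaled to the library totals with TMM factors, 1051 injured counts against 1 control count gave a ratio of 955, with a 95% counting interval of 171 to 37753. The fitted log2 fold change of 9.43 (SE 0.87, 95% interval 7.44 to 11.43, edgeR FDR 0.000522) depends on how the model treats the control zeros and is no bound, and it was 11.06 without control artery 3. Ccl9 was called in all 8 fits that left out 1 artery.

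Despite the shared upstream letters, Ccl6 and Ccl9 differed in their order among the injured arteries. The count of Ccl9 divided by that of Ccl6 was 0.150, 0.893, 0.651 and 1.42 in injured arteries 1 to 4. In the controls the corresponding counts were 0, 0, 1 and 0 of Ccl9 beside 25, 58, 62 and 73 of Ccl6.

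Ccl17 and Ccl22 are the ligands of Ccr4, a receptor of helper and regulatory T cells, and are typical products of dendritic cells and of macrophages. Ccl17 had counts of 0, 0, 0 and 1 in control arteries 1 to 4 and of 10, 1, 21 and 2 in injured arteries 1 to 4. In CPM the injured values were 0.597, 0.0724, 1.17 and 0.163, and injured arteries 2 and 4 were under the floor. The lowest injured artery and the highest control, at 0.0684 CPM, had 1 count each, so their order rests on library size alone. Pooled, 34 counts against 1 gave a ratio of 30.9 with a counting interval of 5.18 to 1256, and DESeq2 gave a log2 fold change of 4.49 with an FDR of 0.0276, whereas edgeR did not test the gene.

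Ccl22 measured 0.144, 0, 0.554 and 0.0684 CPM in control arteries 1 to 4 and 0.776, 0.724, 2.06 and 1.31 CPM in injured arteries 1 to 4. Artery 3 was the highest in both groups, and the groups did not overlap. The means were 0.192 ± 0.249 and 1.22 ± 0.623 CPM (SD, n = 4), and the log2 fold change of 2.59 (SE 0.80, 95% interval 0.74 to 4.43) missed the threshold with an FDR of 0.0623 in edgeR's test. DESeq2 called it at an FDR of 0.0219. Without control artery 3 the log2 fold change was 3.91 and edgeR called it at an FDR of 0.0256.

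Ccl21, the Ccr7 ligand of lymphatic endothelium and lymphoid tissue, guides T cells and dendritic cells. It measured 0.648, 6.80, 10.3 and 10.1 CPM in control arteries 1 to 4 and 22.0, 73.8, 32.0 and 75.2 CPM in injured arteries 1 to 4. Artery 1 was the lowest in both groups, and injured arteries 2 and 4 were about equal and above injured arteries 1 and 3. The mean rose from 6.97 ± 4.51 to 50.7 ± 27.7 CPM (SD, n = 4), for a log2 fold change in edgeR of 2.85 (SE 0.77, 95% interval 1.09 to 4.62, FDR 0.0381). The call depended on single arteries. It was lost without control artery 2 (FDR 0.103), control artery 3 (0.0754), injured artery 2 (0.105) or injured artery 4 (0.109) in edgeR's test, with log2 fold changes of 2.47 to 3.10 over all 8 such fits.

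Lymphatic endothelial markers were read beside Ccl21. Their summed level was 67.9 to 151 CPM in the controls and 119 to 292 CPM after injury, so the groups overlapped, and none of the 6 was at 0 in any artery. Reln alone had 23.5 ± 33.1 and 107 ± 79.9 CPM (SD, n = 4). It made up 71.8 of 151 CPM in control artery 4 and 222 of 292 CPM in injured artery 3. Those arteries also held the most sympathetic neuron markers, so the summed level says little about lymphatic endothelium. Flt4 and Pdpn were upregulated (log2 fold changes 1.52 and 1.29, edgeR FDR 0.00356 and 0.0108). Mmrn1 was downregulated (-1.56, edgeR FDR 0.0346). Prox1, Lyve1 and Reln were not called. Prox1 measured 0.144, 0.492, 0.485 and 12.9 CPM in control arteries 1 to 4 and 1.61, 3.84, 3.35 and 4.82 CPM in injured arteries 1 to 4. Every injured artery was thus above control arteries 1 to 3 and below control artery 4. The log2 fold change of -0.07 for Prox1 (edgeR FDR 0.976) includes control artery 4. The part of these cells in the Ccl21 result was not tested.

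**Figure D2:**
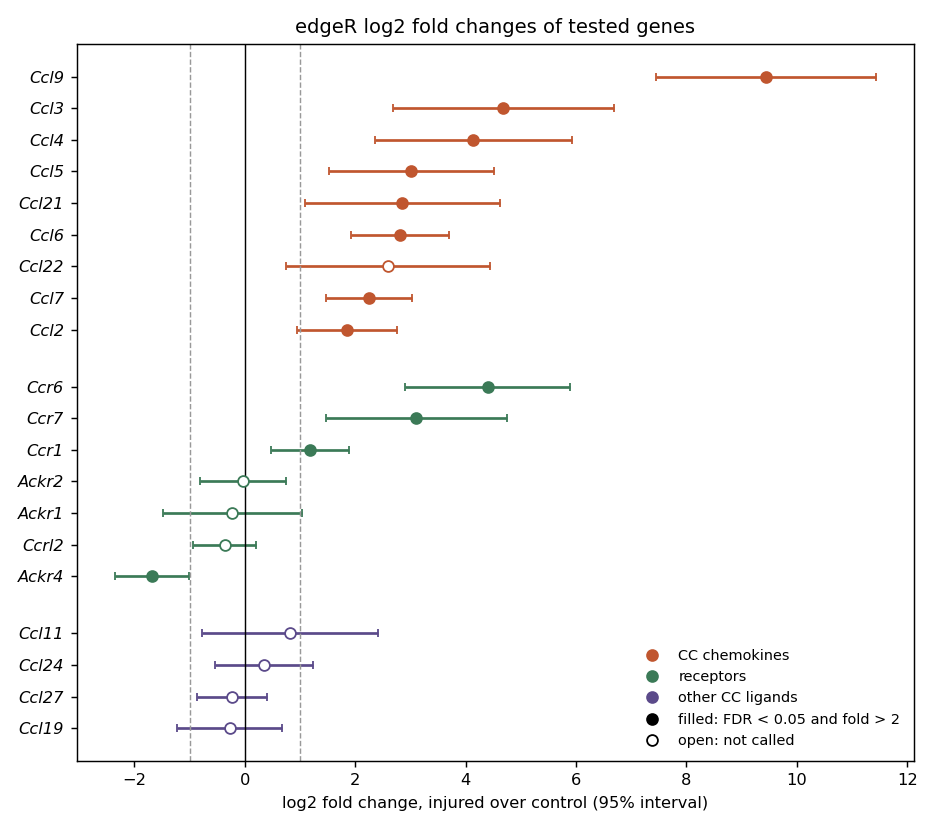
Log2 fold change, injured over control (horizontal axis), of the tested CC chemokines, their receptors and the other CC ligands, from edgeR with 95% intervals. Filled points passed the FDR and fold change thresholds and dashed lines mark a fold change of 2. All 9 tested members lie above 0, from 1.85 for Ccl2 to 9.43 for Ccl9, and Ackr4 is the receptor that lies below -1.

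The injured arteries did not share 1 order across the chemokines. From high to low, Ccl2, Ccl3 and Ccl7 followed the order injured artery 2, 4, 3 and 1, and Ccl9 and Ccl21 the order 4, 2, 3 and 1. In Ccl4, Ccl5 and Ccl6 injured artery 1 was the highest, and in Ccl17 and Ccl22 injured artery 3. Injured artery 1 was thus the highest vessel for 3 members and the lowest for 5, while injured artery 4 was never the lowest. The highest injured artery exceeded the lowest by 1.74-fold for Ccl2, 2.04-fold for Ccl6, 3.42-fold for Ccl21, 4.98-fold for Ccl9 and 16.2-fold for Ccl17, the last on counts of 21 and 1. These orders describe 4 vessels and carry no test.

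**Figure D3:**
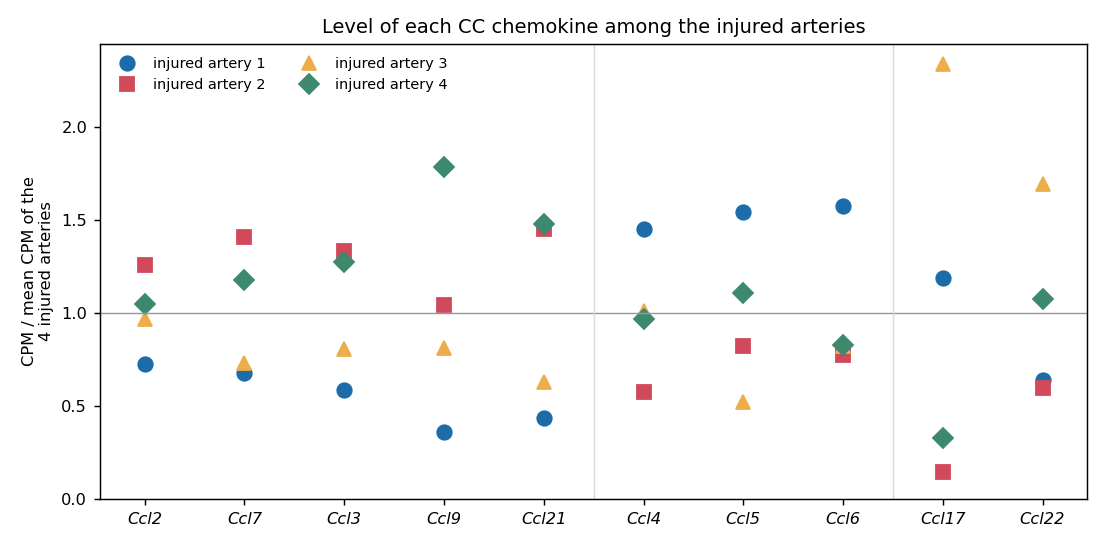
CPM of each CC chemokine in an injured artery divided by the mean CPM of the 4 injured arteries (vertical axis, no unit), with genes along the horizontal axis. Injured artery 1 is below the mean for Ccl2, Ccl7, Ccl3, Ccl9 and Ccl21 and the highest for Ccl4, Ccl5 and Ccl6, and injured artery 3 is the highest for Ccl17 and Ccl22.

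Of 10 other CC ligands, 4 had enough counts for edgeR and 0 were called, beside 8.31% of all tested genes called upregulated and 2.57% downregulated, and their difference from the members was not tested. Of the 4, 0 had an unadjusted p under 0.05, while DESeq2 called 1 of the 10, Ccl12. Ccl11, an eosinophil attractant that lies next to Ccl7, had 1.46 ± 1.44 and 2.62 ± 1.54 CPM (SD, n = 4) in the control and injured arteries, and its log2 fold change of 0.82 had an FDR of 0.466 in edgeR's test. Its groups overlapped, with 3.55 CPM in control artery 4. Without that artery Ccl11 was called at a log2 fold change of 1.78 (edgeR FDR 0.0462).

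Ccl12, a monocyte attractant that follows Ccl11, had counts of 4, 0, 2 and 1 in control arteries 1 to 4 and of 11, 17, 11 and 14 in injured arteries 1 to 4. Its groups did not overlap, and DESeq2 gave a log2 fold change of 2.83 (FDR 0.00763). edgeR left it untested with all arteries and called it in 4 of the 7 fits without 1 artery in which it was tested, namely without control artery 1 (FDR 0.0273), 2 (0.0460) or 4 (0.0338) or injured artery 3 (0.0371). Ccl19, the other ligand of Ccr7, had a log2 fold change of -0.28 (edgeR FDR 0.691), and its difference from Ccl21 was not tested. Ccl24 and Ccl27 were not called either, with edgeR log2 fold changes of 0.35 and -0.23. Ccl20, the ligand of Ccr6, had 3 counts in injured artery 4 and none elsewhere.

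Of 12 receptor genes analysed, 7 were tested, 3 were upregulated and Ackr4 was downregulated. Over all tested genes 8.31% were upregulated and 2.57% downregulated. Ccr2, the receptor of Ccl2 and Ccl7, was not analysed here. Ccr1, a receptor of Ccl3, Ccl5, Ccl6, Ccl7 and Ccl9, measured 0.864, 2.13, 1.45 and 1.37 CPM in control arteries 1 to 4 and 3.88, 3.40, 2.51 and 3.43 CPM in injured arteries 1 to 4. Its groups did not overlap, and the log2 fold change was 1.18 (SE 0.31, edgeR FDR 0.0331). The call was lost, at log2 fold changes near that value, without control artery 1 (0.99, FDR 0.0616), control artery 3 (1.17, FDR 0.0817), injured artery 1 (1.09, FDR 0.0892), injured artery 2 (1.17, FDR 0.0825) or injured artery 4 (1.16, FDR 0.0885) in edgeR's test. Ccr7, the receptor of Ccl21, had counts of 0, 4, 1 and 2 in control arteries 1 to 4 and of 29, 9, 25 and 11 in injured arteries 1 to 4. Injured arteries 1 and 3 were the highest for Ccr7, whereas they were the lowest for Ccl21. The log2 fold change of Ccr7 was 3.11 (SE 0.71, edgeR FDR 0.021), 3.91 without control artery 2, and it was not called without control artery 3 (FDR 0.0688) or injured artery 4 (FDR 0.0533) and had too few counts for edgeR without injured artery 1 or 3.

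Ccr6, found on B cells and on some T cells and dendritic cells, had counts of 0, 0, 1 and 1 in control arteries 1 to 4 and of 15, 11, 23 and 9 in injured arteries 1 to 4, with a log2 fold change of 4.40 (SE 0.65, edgeR FDR 0.00334). Like Ccr7 it passed the filter only through the injured arteries. Ccr4, the receptor of Ccl17 and Ccl22, had counts of 0, 1, 0 and 0 in control arteries 1 to 4 and of 1, 1, 6 and 3 in injured arteries 1 to 4, too few for edgeR. Injured artery 3, where Ccl17 and Ccl22 were highest, had the 6 counts.

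Ackr4, a scavenger of Ccl19, Ccl21 and Ccl25, moved the other way. It measured 35.3, 52.6, 32.6 and 24.8 CPM in control arteries 1 to 4 and 14.4, 13.7, 7.14 and 10.1 CPM in injured arteries 1 to 4. Every injured artery was below every control. The mean fell from 36.3 ± 11.7 to 11.4 ± 3.38 CPM (SD, n = 4), for a log2 fold change in edgeR of -1.68 (SE 0.29, FDR 0.00704) that was called in all 8 fits that left out 1 artery. Ccrl2, Ackr1 and Ackr2, the last a scavenger of inflammatory CC chemokines, were not called, with log2 fold changes of -0.36, -0.23 and -0.03.

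Among 19 cytokines, pattern receptors and transcription factors known to induce CC chemokine genes, 10 were tested. Of these 3 were upregulated, beside 8.31% of all tested genes. Il1b measured 0.072, 0.41, 0.346 and 0.41 CPM in control arteries 1 to 4 and 5.91, 15.9, 2.90 and 3.59 CPM in injured arteries 1 to 4. Injured artery 2, highest for Ccl2, Ccl3 and Ccl7, was also the highest for Il1b. Injured artery 1 was the next highest for Il1b but the lowest for Ccl2, Ccl3 and Ccl7. The log2 fold change of Il1b was 4.48 (edgeR FDR 0.00516) and 3.70 without injured artery 2. Like Ccr6 and Ccr7, Il1b passed the filter only through the injured arteries. Tlr2, a receptor for bacterial and matrix components, rose by a log2 fold change of 2.30 (edgeR FDR 0.000544), and the transcription factor Irf5 by 2.80 (edgeR FDR 0.000242). For Tlr2 and Irf5, too, injured artery 2 was the highest.

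The subunits of NF-kappaB moved less. Nfkb1, Nfkb2 and Rela had log2 fold changes of 0.28, 0.64 and -0.21 and were not called. Relb, at 1.00, had an FDR of 0.0539 in edgeR's test and was called without control artery 2 (1.22, FDR 0.0426). Irf1 (0.58, edgeR FDR 0.00409) and Tlr4 (0.96, edgeR FDR 0.0367) had FDRs under the threshold with fold changes below 2, and Tlr4 was called without injured artery 3 (1.13, FDR 0.0149). Stat6 was not called, and Tnf, Il6, Ifng, Il4 and Il13 were among the 9 genes with too few counts.

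Markers of macrophages and dendritic cells rose beside the chemokines. Macrophage markers summed to 189 to 255 CPM in the controls and 797 to 1060 CPM after injury. Of the 11 analysed 10 were upregulated, beside 8.31% of all tested genes. Cd68 had 3.05 ± 0.263 and 51.8 ± 11.4 CPM (SD, n = 4), while Cd163 was not called, and no macrophage marker was at 0. Of the 8 dendritic cell markers 6 were tested and 4 were upregulated, Itgax, Cd83, Batf3 and Clec9a, beside 8.31% of all tested genes. Their sum went from 18.9 to 26.7 CPM in the controls up to 66.6 to 93.5 CPM after injury. Much of the rise was Itgax, which macrophages also carry, with 0.809 ± 0.163 and 35.3 ± 12.3 CPM (SD, n = 4). Zbtb46, a transcription factor of classical dendritic cells, had 17.7 ± 2.44 and 20.1 ± 1.5 CPM (SD, n = 4) and was not called (log2 fold change 0.18, edgeR FDR 0.435), nor was Flt3 (2.47, edgeR FDR 0.106). The groups of Flt3 did not overlap, and DESeq2 called it (FDR 0.0202) but not Zbtb46 (FDR 0.593). Xcr1 had counts of 0, 0, 0 and 3 in control arteries 1 to 4 and of 31, 7, 14 and 15 in injured arteries 1 to 4. edgeR did not test Xcr1, whereas DESeq2 called it (log2 fold change 4.32, FDR 0.00225). Lamp3, also untested by edgeR, was at 0 in 4 of the 8 arteries.

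T cell markers summed to 19.5 to 42.6 CPM in the controls and 129 to 169 CPM after injury. Most of that sum was Cd4, which rat macrophages also carry, with 23.4 ± 6.5 and 131 ± 13 CPM (SD, n = 4). Of 9 markers 8 were tested, with log2 fold changes of 1.44 to 3.03. Cd4 and Cd2 were upregulated, 2 of 8, beside 8.31% of all tested genes. Cd3e, at 0 to 0.983 CPM in the controls and 1.45 to 2.57 CPM after injury, was not called (edgeR FDR 0.182). B cell markers summed to at most 0.346 CPM in the controls and 1.34 to 2.45 CPM after injury, and Cd79a was at 0 in every artery. Skeletal muscle markers were also upregulated in 4 of 6, beside 8.31% of all tested genes. They summed to 84 to 260 CPM in the controls and 233 to 912 CPM after injury. The part of these cell types in the chemokine results was not tested.

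**Figure D4:**
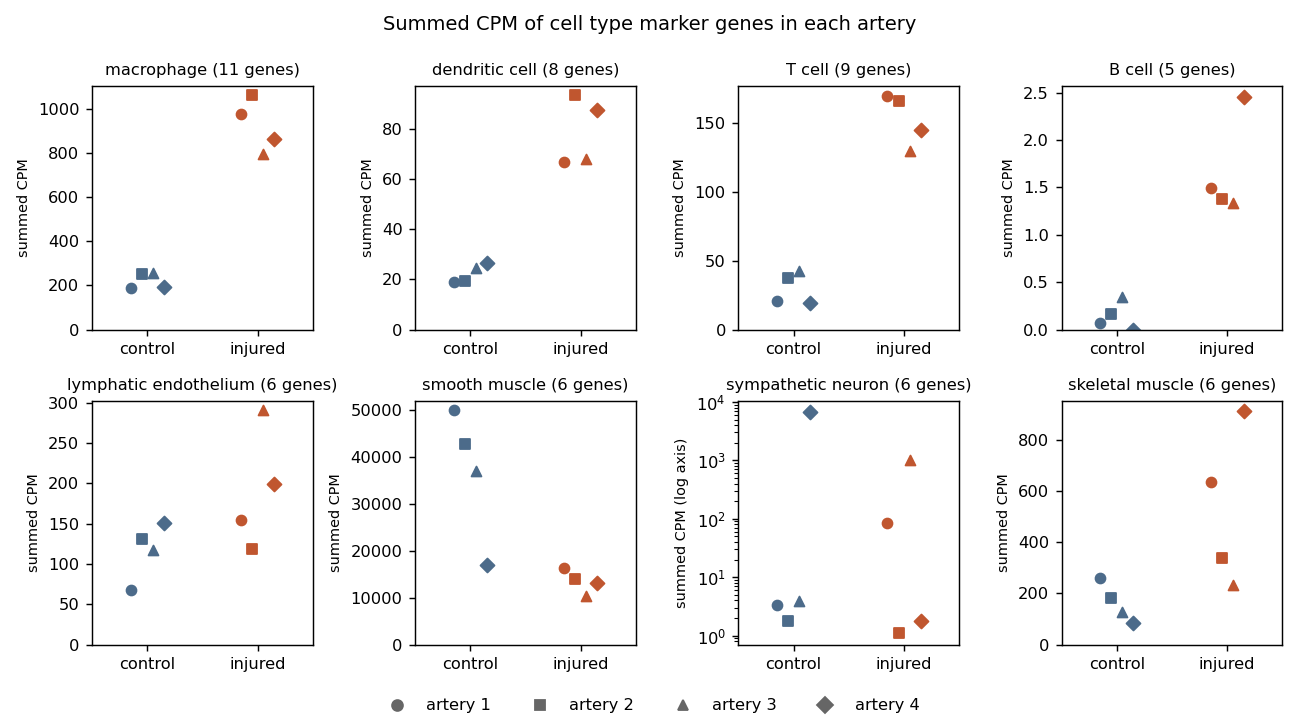
Summed CPM (vertical axis, linear except for sympathetic neuron, which is a log axis) of 8 lists of cell type markers in each control and injured artery, with symbols for the artery number. Macrophage, dendritic cell, T cell and B cell sums are higher in all injured arteries than in all controls, lymphatic endothelium overlaps, and control artery 4 and injured artery 3 have the highest sympathetic neuron sums.

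Outside the family, the gene most like each tested member in its log2 CPM over the 8 arteries was sought among 12894 genes. Pearson's r was 0.988 between Ccl2 and Cdca8, a mitotic gene, 0.996 between Ccl3 and Bub1b, a spindle checkpoint kinase, and 0.997 between Ccl7 and Scimp, an adaptor protein of antigen-presenting cells. The closest gene was Dpep2 for Ccl4 (0.986), Dlk1 for Ccl5 (0.980), Ebf3 for Ccl6 (0.995) and Fcrl2 for Ccl9 (0.997). For Ccl21 it was Pcdh12 (0.984) and for Ccl22 Ddx19b (0.965). The 8 points fall into the injury groups and share library size and composition, so the values describe a pattern and were not tested.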

How the data were processed

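The authors deposited raw read counts per gene for mRNA sequencing of 4 injured and 4 control arteries, listed by symbol and not normalized. The submitters' processing notes name HISAT2 2.0.4, and the genome build, counting tool and strand setting were not given in the sources used here. The extraction text in the labels names a brain region, whereas the other labels name the carotid artery.

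Counts were analysed in R 4.3.3 with edgeR 4.0.16. Genes were kept by filterByExpr (0.67 CPM in at least 4 arteries), scaled with TMM factors and compared with the quasi-likelihood test without covariates. A gene was called at a Benjamini-Hochberg FDR under 0.05 over all 14359 tested genes and a fold change above 2. The SE was the log2 fold change divided by the square root of F. The exact permutation test used log2(CPM + 0.5). DESeq2 1.42.0 was an alternative, beside other scalings, filters, call rules, a replicate block and the omission of each artery. The edgeR and DESeq2 steps were tested on simulated counts. Promoters were searched with Python 3.11.15 and aligned with Biopython 1.88.

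The members and gene lists were chosen with earlier results of these data known, and some listed genes are not reported here and were left out of the counts over their lists. Named were all members, called receptors and other ligands, the members' known receptors, called inducers, marker lists, and for each tested member the gene most correlated with it at an average log2 CPM of at least 1. Where other genes are named, such as Ccl12, they were chosen after their values were seen. That the arteries are separate animals is not stated for each sample, so p-values measure the spread between these samples.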

Additional observations from a re-analysis of the deposited data

Results flagged for a closer look

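In 6 of 40 groups of 4 arteries, 1 artery stood apart by Dixon's ratio, its gap to the nearest artery divided by the range of the group. Chance alone gives about 1 in 20, or 2 of 40, for independent and normally distributed values. Low counts are not of that kind, so the 6 cannot be weighed against the 2. Among the CC chemokines, Ccl6 had a ratio of 0.931 in the injured arteries, where injured artery 1 held 44.2 CPM and the next 23.2 CPM. Ccl9 had a ratio of 1 in the controls, where the single count of control artery 3 stood against 0 in the others, which can give no other ratio. Ccrl2 had 0.904 in the injured arteries, with 2.46 CPM in injured artery 3 and 2.99 CPM in the nearest. Ackr1 had 0.831 in the controls, with 56.3 CPM in control artery 4 and 18.8 CPM in the nearest. Ccl11 had 0.861 in the injured arteries, with 4.90 CPM in injured artery 4 and 2.03 CPM in the nearest. Ccl27 had 0.908 in the controls, with 5.82 CPM in control artery 3 and 4.51 CPM in the nearest.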

How the results depend on the processing

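None of the 9 CC chemokines tested by edgeR changed direction under any alternative run, and Ccl3, Ccl6, Ccl7 and Ccl9 were called under every alternative in which they were tested. Of the members, 8 were called as reported. The count was 2 with at least 10 counts in every artery, where only Ccl2 and Ccl6 were tested, 5 against a doubling as the null, and 5 to 8 when 1 artery was left out. Of the receptors, 4 were called as reported, 2 with at least 10 counts in every artery, 1 against a fold change of 2 and 2 to 4 with 1 artery left out. Of the other CC ligands 0 were called as reported, 1 with DESeq2, 0 to 2 with 1 artery left out and 2 with both control artery 4 and injured artery 3 left out, a setting chosen after seeing the data. Of the inducers 3 were called as reported, 5 with library totals alone, 5 at the FDR alone and 3 to 4 with 1 artery left out. Against a fold change of 2, the FDR in edgeR was 0.153 for Ccl2, 0.0711 for Ccl5 and 0.173 for Ccl21. Library totals alone moved the median log2 fold change of all genes to 0.12, and called Ccl22 (edgeR FDR 0.0489). Over all genes 1562 were called as reported, 2150 with DESeq2, 1007 with at least 10 counts in every artery, 661 against a fold change of 2, 2468 at the FDR alone and 1142 to 2398 with 1 artery left out. Depth limits Ccl17 most, with 2 injured arteries under the floor.

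The labels call the right artery a self-control without tying numbers to animals. After subtraction of the group means, arteries with the same number had correlations of 0.363, 0.494, -0.581 and -0.447 for replicates 1 to 4. These values cannot decide whether the numbers are pairs. Control artery 4 and injured artery 3 held far more sympathetic neuron markers than the rest of their groups. Arteries that stand apart in this way can set the signs of such correlations by themselves. In the reported results the numbers were not taken as pairs. With the replicate block 6 members, 2 receptors, 0 other CC ligands and 4 inducers were called, with edgeR FDRs over the threshold for Ccl4 (0.0518), Ccl5 (0.0516), Ccr1 (0.0966) and Ccr7 (0.103), and 1187 genes were called in all.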
